A study of Mus musculus with 617 samples.

Results

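The genes described here are 8 that the visceral endoderm transcribes for proteins it secretes: Apoa1, Apoa4, Apob, Apoe, Apom, Rbp4, Ttr and Afp. They were taken by symbol from tables of 43628 Ensembl genes, and all 8 were found. RNA was measured in 617 single mouse cells of 13 groups, each cell being its own library. Values were FPKM, in which fragments are scaled by transcript length and by the size of the library, so levels of different genes are comparable per length. A gene was counted as present in a cell at 1 FPKM or more.

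In culture, 1 female and 1 male line of mouse embryonic stem (ES) cells were used, both from a cross of a CAST/EiJ male with a C57BL/6J female. Both lines were grown in 2i medium with LIF (60 female and 51 male cells), in serum with LIF (68 and 52), as epistem cells in Activin A and FGF2, called Epi here (79 and 63), and after embryoid body differentiation with retinoic acid and the smoothened agonist SAG, labelled motor neuron (39 and 35). Interneurons also arise in that protocol, according to the labels. A further female Epi group was taken after 7 passages (41 cells). Embryos of the CAST/EiJ and C57BL/6J cross gave 23 E3.5 cells of the inner cell mass (ICM) and 23 E4.5 cells of the epiblast, with no sex labelled. Epiblast cells at E5.5 had C57BL/6J parents on both sides and were 20 female and 63 male. Between E5.5 and the earlier stages, stage and strain therefore cannot be told apart. Each sex was thus 1 line in culture, and the number of embryos behind an embryonic group was not given.

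On the GRCm38 assembly the lipoprotein genes lie at chr9:46228580-46230466 (Apoa1, plus strand), chr9:46240696-46243459 (Apoa4, plus), chr12:7977648-8016835 (Apob, plus), chr7:19696109-19699188 (Apoe, minus) and chr17:35128997-35132050 (Apom, minus). The carrier genes lie at chr19:38116629-38125281 (Rbp4, minus) and chr18:20665280-20674321 (Ttr, plus), and Afp at chr5:90490737-90508907 (plus). All 8 are protein-coding in GENCODE. Apoa1 and Apoa4 are near neighbours on chromosome 9.

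The visceral endoderm is the epithelium that covers the epiblast of the early mouse embryo and later lines the yolk sac, where it takes up maternal nutrients and exports them before the embryo has a liver. It secretes lipoproteins and carrier proteins that hepatocytes make in the adult. Apoa1 and Apoa4 are structural proteins of small lipoprotein particles, Apob is the backbone of large triglyceride-rich particles, Apoe is a ligand for receptors that clear lipoproteins, and Apom carries sphingosine-1-phosphate. Rbp4 carries retinol, Ttr carries thyroid hormone and binds Rbp4, and Afp is the fetal relative of albumin. Ttr is also a known product of the choroid plexus, and Apoe of macrophages and glia, so neither gene marks endoderm alone.

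FOXA factors are winged-helix transcription factors of endoderm and liver, and their core letters were looked for in the RefSeq promoter windows of these genes (GRCm38.p6, 250 bases before to 50 bases after a start site). Of the 8 genes, 7 had a window, with Ttr not among them. The letters TGTTTNC stood on one strand or the other in the window of 6 of these 7 genes (all but Apoa4), in 6 of their 10 windows. Among all 32851 windows, 20.5% held them. The stretches before the start and outside exons that hold a match, in 4 genes, are shown here. The match, or its reverse complement, is in capitals. Apoe and Apom had no match in such a stretch, that of Apom being 1 base long. All 4 are read along the gene's own strand.
Afp, chr5:90490464-90490713: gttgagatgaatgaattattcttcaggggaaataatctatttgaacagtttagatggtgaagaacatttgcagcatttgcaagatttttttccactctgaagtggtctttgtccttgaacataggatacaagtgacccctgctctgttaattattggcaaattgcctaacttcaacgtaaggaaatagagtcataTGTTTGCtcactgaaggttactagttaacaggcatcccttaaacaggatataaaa
Apoa1, chr9:46228380-46228579: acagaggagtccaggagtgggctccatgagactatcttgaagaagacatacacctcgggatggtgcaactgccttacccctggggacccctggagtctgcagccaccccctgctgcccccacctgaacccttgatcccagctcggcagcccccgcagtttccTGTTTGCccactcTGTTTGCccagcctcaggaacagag
Apob, chr12:7977427-7977647: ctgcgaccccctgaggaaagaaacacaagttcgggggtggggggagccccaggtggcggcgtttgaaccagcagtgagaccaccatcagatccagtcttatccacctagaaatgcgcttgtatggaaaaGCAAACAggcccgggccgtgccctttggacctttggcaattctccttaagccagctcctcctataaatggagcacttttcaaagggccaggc
Rbp4, chr19:38125322-38125571: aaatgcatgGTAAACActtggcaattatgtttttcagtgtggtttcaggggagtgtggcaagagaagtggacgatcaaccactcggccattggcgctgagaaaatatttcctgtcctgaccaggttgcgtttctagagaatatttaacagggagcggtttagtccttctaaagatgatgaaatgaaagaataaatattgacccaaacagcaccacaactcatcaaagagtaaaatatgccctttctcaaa
The first base of the match lay at position -55 from the RefSeq start site in Afp, at -88 and -75 in Apoa1, at -121 in Apob and at -241 in Rbp4. Apoa1 therefore held a pair of matches a few bases apart. TATAAA was in the windows of Afp, Apob, Apoe and Rbp4 (13.6% of all windows). Neither AGATAA, bound by GATA factors (11.2%), nor AGGTCA, bound by nuclear receptors (16.3%), was in any of the 10 windows. Both strands were searched, overlapping motifs were allowed, and a match describes letters only.

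Group medians of detected genes, those at 1 FPKM or above, ran from 8122 per cell (E3.5) to 10839.5 (female E5.5). Read depth is unknown, and the number of cells limits the precision. The 4 tables behind the groups (first 8 cultures, 7-passage Epi, blastocyst, E5.5) were normalised separately, so levels set side by side across them include any difference in processing. No pair of cells had identical values. Marker genes matched the labels in part. Pou5f1 and Sox2, core pluripotency genes, and Otx2, an epiblast gene, were at 1 FPKM or more in every one of the 83 E5.5 cells. The same cells held endoderm genes: Amn, a visceral endoderm receptor subunit, was present in 20 of 20 female and 61 of 63 male cells. Doublets were not screened, so transcripts of an epiblast cell and of an endoderm cell collected with it cannot be told apart. In the motor neuron cultures Sox17, Gata4 and Lama1, which are endoderm genes, were all present together in 13 of 39 female and 26 of 35 male cells.

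Transcripts of all 8 genes were found at E5.5, and each of them averaged more in female E5.5 cells than in any other group. Apoe was present in every group. Apom was present in most 2i cells, Rbp4 in a minority of serum, Epi and motor neuron cells, and Ttr in the motor neuron cultures. Apoa1, Apoa4, Apob and Afp averaged between 0 and 3.36 FPKM in every culture and blastocyst group, the highest of these means being that of Afp in female motor neuron cells. The dot plot of shares and means by group gives this layout.

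**Figure D1:**
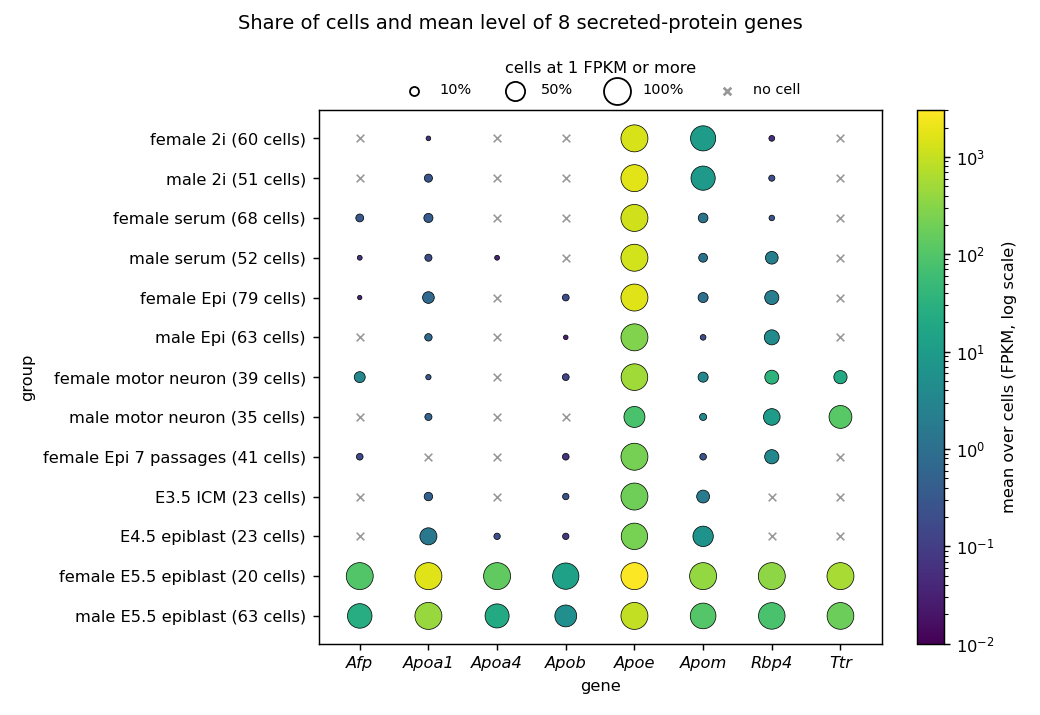
Share of cells at 1 FPKM or more (dot size, percent) and mean FPKM (colour, log scale) of the 8 genes (columns) in the 13 groups (rows), with a cross where no cell reached 1 FPKM. The E5.5 rows are filled for all 8 genes, Apoe is filled in every row, and Ttr has dots in the motor neuron and E5.5 rows alone.

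Among lipoprotein genes at E5.5, Apoa1 ran from 117.5 to 6049 FPKM with a median of 1163 in the 20 female cells, and from 3.58 to 1557 with a median of 284.1 in the 63 male cells. Apoa4 ran from 2.67 to 388 FPKM (median 118.2) in female cells and from 0 to 114.1 (median 14.6) in male cells. Apob ran from 0.2999 to 45.03 FPKM (median 11.1) in female cells and from 0 to 24.2 (median 2.66) in male cells. Every E5.5 cell thus held Apoa1, while Apoa4 was missing at 1 FPKM from 13 male cells and Apob from 1 female and 22 male cells. Apoe ran from 488 to 7336 FPKM (median 2715) in female cells and from 150 to 3142 (median 670) in male cells. Apom ran from 20.7 to 1663 FPKM (median 341) in female cells and from 0 to 390 (median 70.1) in male cells, with 57 of 63 male cells at 1 FPKM or more. The female and male ranges overlapped for each of these genes, and each female median lay above the male one.

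Of the carriers, Ttr ran from 36.9 to 2249 FPKM (median 504.4) in female E5.5 cells and from 0 to 777 (median 104.3) in male cells, and was absent from 1 male cell. Rbp4 ran from 33.95 to 1420 FPKM (median 257.8) in female cells and from 0 to 458 (median 54.3) in male cells, absent from 2. Afp ran from 3.15 to 377 FPKM (median 79.6) in female cells and from 0 to 136.9 (median 11.6) in male cells, of which 52 of 63 were at 1 FPKM or more. All 8 genes were present together in 19 of 20 female and 35 of 63 male cells, and no male cell held fewer than 4. The single female cell short of 8 held 7, lacking Apob.

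**Figure D2:**
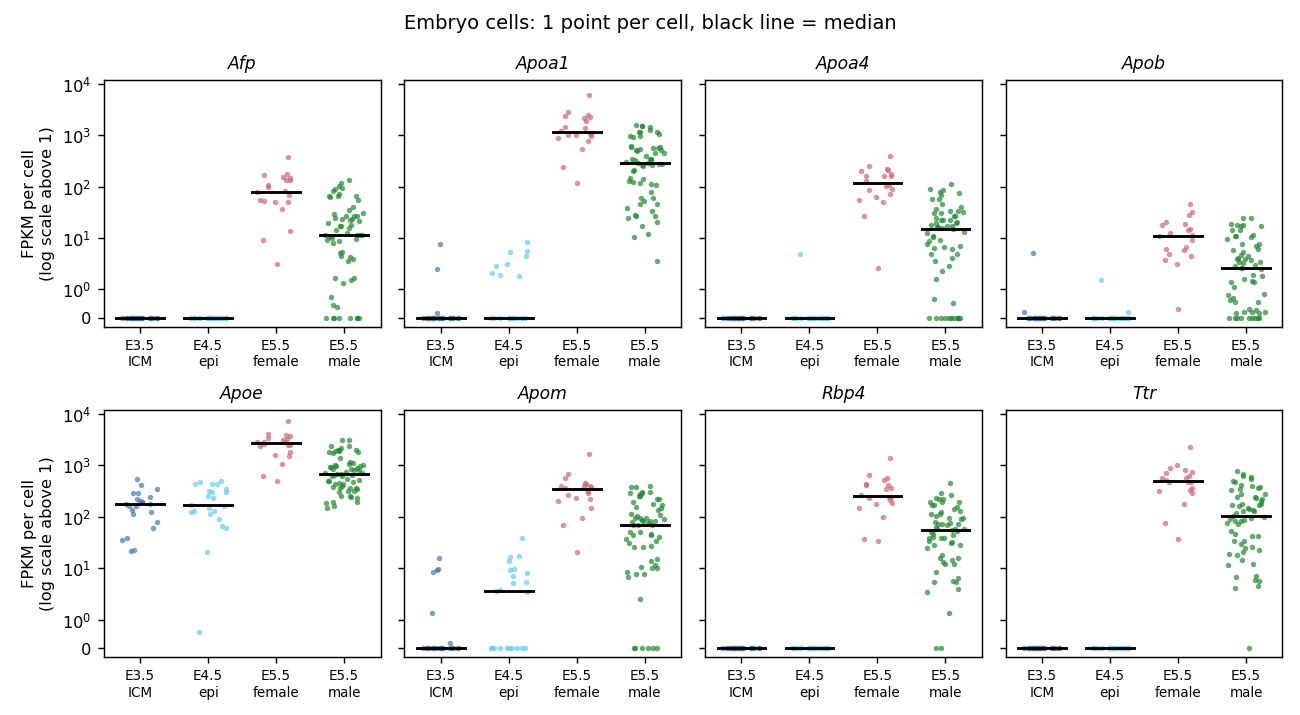
FPKM of the 8 genes (panels) in each embryonic cell, by stage and, at E5.5, by sex, on an axis that is logarithmic above 1, with the median as a black line. The E5.5 medians lie above the E3.5 and E4.5 medians for all 8 genes, and the Apoe points overlap between stages.

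Mean levels at E5.5 were higher in the female than in the male cells for all 8 genes. The female to male ratio of means was 3.74 for Apoa1, 6.34 for Apoa4, 2.63 for Apob, 2.95 for Apoe, 3.68 for Apom, 4.29 for Rbp4, 3.33 for Ttr and 3.93 for Afp. Each was past a log2 difference of 1, with a median of 1.89, whereas 5.97% of the 13434 genes compared were higher in female cells by that much and the median of all genes was 0.02. With 1 sample per sex there was no test. Other secreted plasma proteins were higher too, 9 of the 9 that could be compared, among them Apoc2, an activator of lipoprotein lipase, with means of 2253 and 467 FPKM. Trf, which carries iron, averaged 76.6 and 21.5 FPKM. Alb was at 0 in all 20 female cells, which allows a share of up to 15.0%, and present in 1 of 63 male cells.

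The sexes at E5.5 also differed in other measures. Pou5f1 averaged 473 FPKM in female and 749 in male cells, and Otx2 92.2 and 144.04 FPKM. The endoderm genes Sox17 (35.1 and 9.90 FPKM) and Amn (204 and 55.8 FPKM) were higher in female cells, with the 8 genes. Cell numbers in the titles ran from 99 to 126 for female and from 9 to 96 for male cells, so sex and any batch behind those numbers cannot be told apart. Of 8 trophoblast markers 7 could be compared and 4 were higher in female cells by a log2 difference of 1. Their sum per cell ran from 16.3 to 378 FPKM in female and from 6.16 to 467 in male cells, with none of the markers at 0 in either sex. Of 10 decidua markers 5 could be compared and 2 were higher, with sums of 9.89 to 410 and of 0 to 62.5 FPKM and none at 0 throughout. Prl8a2, a decidual prolactin, was present in 19 of 20 female and 15 of 63 male cells. Their part in the difference was not tested. In the 35 male cells with title numbers of 49 or more, Prl8a2 was at 0 in every cell, and Apoa1 there averaged 587 FPKM and Ttr 233 FPKM. In the 28 male cells with lower numbers Apoa1 averaged 221 FPKM and Ttr 104.5 FPKM. Of these 28 cells, 13 had Prl8a2 at 0 too.

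The means of Ttr, Rbp4, Apom and Afp stood in similar proportions to the Apoa1 mean in both sexes although the amounts differed. Those of Apoa4 and Apob did less so. Relative to the Apoa1 mean, the Ttr mean was 36.99% in female and 41.5% in male cells, Rbp4 22.3% and 19.4%, Apom 24.01% and 24.4%, and Afp 6.30% and 5.99%. Apoa4 was at 8.58% and 5.06%, and Apob at 0.852% and 1.21%. Apoe exceeded Apoa1, at 172% and 217%. In single cells the log2 ratio of Ttr to Apoa1 had an SD of 0.42 over 20 female cells and of 0.69 over the 62 male cells with both. For female and male cells the SD was 0.33 and 0.88 for Rbp4, 0.44 and 0.62 for Apom, and 0.53 and 1.16 for Apoe. It was wider for Apoa4 (0.61 and 1.12), Afp (0.75 and 1.46) and Apob (0.84 and 1.59) in female cells. Cells at 0 for a gene are left out, among them 8 male cells for Afp.

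Across E5.5 cells the genes varied together. The Spearman correlation over the 28 pairs had a median of 0.77 in the 20 female cells, from 0.55 (Apob with Ttr) to 0.92 (Rbp4 with Apoa4), and a median of 0.81 in the 63 male cells, from 0.67 (Apob with Apoa4) to 0.95 (Apoa1 with Apom). These cells share a table, and Apoa1 had a correlation of -0.31 with relative depth in female cells and -0.02 in male cells. In the male cells with title numbers of 49 or more the median over pairs was 0.90. The heat maps of pairwise correlation show no pair below 0.5 in either sex.

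**Figure D3:**
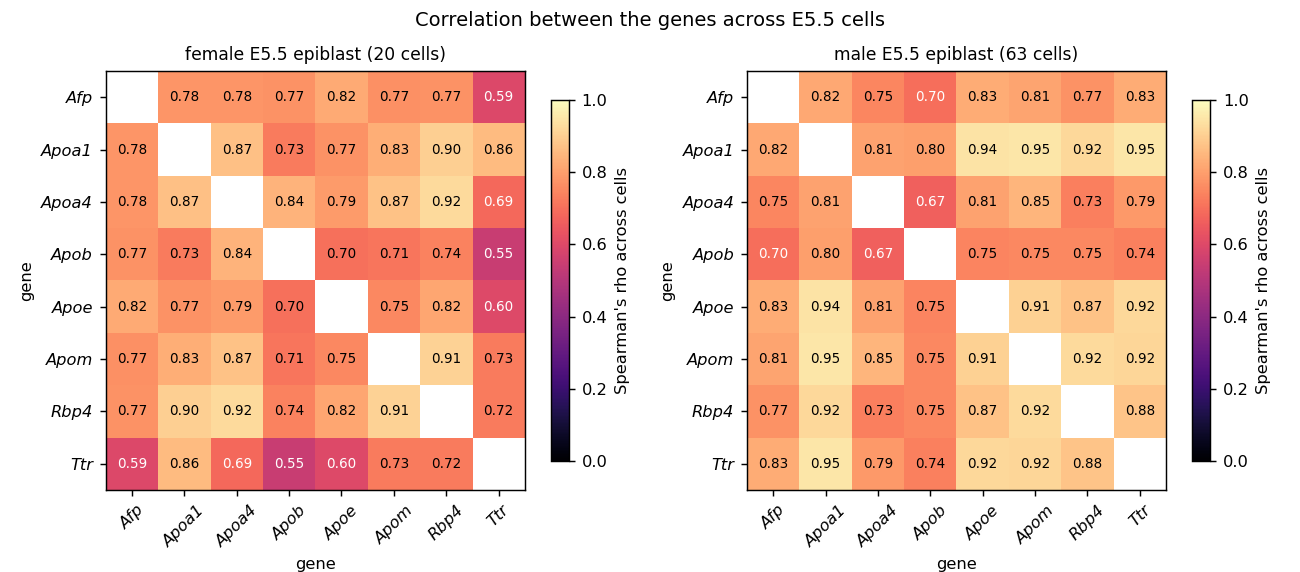
Spearman correlation (colour) of FPKM between each pair of the 8 genes across 20 female and 63 male E5.5 cells. All 28 pairs are positive in both maps, from 0.55 to 0.92 in female and from 0.67 to 0.95 in male cells.

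Genes of the pathway varied with them. In male E5.5 cells the correlation was 0.91 for Apoa1 and Amn, 0.89 for Apoa1 and Apoc2, 0.82 for Apoa1 and Dab2 (an endocytic adaptor), and 0.78 for Apoa1 and Mttp (which loads lipid onto Apob). In female cells it was 0.85 for Apoa1 and Amn and 0.75 for Apoa1 and Mttp. The correlation of Apoa1 and Pou5f1 was -0.39 in male and 0.04 in female cells, and that of Apoa1 and Prl8a2 was -0.22 and 0.44. Mttp itself was present in 20 of 20 female and 48 of 63 male cells, and Hnf4a, a regulator of apolipoprotein genes, in 18 and 27.

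Genes whose pattern was most like that of the 8 were ranked by their Spearman correlation with the mean of log2(FPKM + 1) over the 8 genes. In male E5.5 cells, over 13221 genes and 63 cells, they were Spink1 (0.93), a secreted trypsin inhibitor, Ctsh (0.92), a lysosomal protease, Amn (0.92), Apoc2 (0.88) and Ctsl (0.87), another lysosomal protease. Of these, Ctsh also ranked among the 10 most alike in the motor neuron cultures, at 0.57 in the female and 0.72 in the male culture, out of 13572 genes. The other 9 in the motor neuron ranking were Syngr2 (0.65), Pdpn (0.64), Fth1 (0.64), Lgals2 (0.63), Trap1a (0.62), Pola1 (0.62), Mreg (0.62), Gm5398 (0.61) and Ctsz (0.61), each value being the mean of both cultures. In the male motor neuron culture Afp, Apoa4 and Apob were at 0 in every cell. Apoe made up 88.9% of the members' summed mean in the female culture. In the male culture Ttr made up 54.8% and Apoe 38.3%. The motor neuron ranking therefore rests on few of the 8 genes. At E3.5 the highest were Dnajc8 (0.70) and Vps26a (0.70) over 11344 genes and 23 cells. Afp, Apoa4, Rbp4 and Ttr were at 0 in all of these cells, and Apoe made up 98.6% of the members' summed mean. The E3.5 ranking therefore rests mainly on Apoe. The mean of log2 values over the 8 genes had a correlation with genes per cell of 0.34 at E3.5 and 0.27 in male E5.5 cells.

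In blastocysts the members other than Apoe were at 0 or low. Afp, Rbp4 and Ttr were at 0 in all 46 cells, which allows a share of up to 6.52% (3 cells of 46). Apoa4 was present in 1 of 46 cells, at 4.98 FPKM, and Apob in 2. Apoa1 was present in 2 of 23 cells at E3.5 (8.70%, exact Clopper-Pearson 95% interval 1.07% to 28.04%) and in 9 of 23 at E4.5 (39.1%, 19.7% to 61.5%), never above 8.34 FPKM. Intervals and limits cover counting error only, here and elsewhere.

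Apom was found in more cells at E4.5 than at E3.5. It ran from 0 to 15.6 FPKM with a median of 0 at E3.5, where 5 of 23 cells held it, and from 0 to 38.4 with a median of 3.58 at E4.5, where 13 of 23 did. Its mean was 1.93 FPKM at E3.5 and 6.15 at E4.5, a difference of 1.29 on the log2(mean FPKM + 1) scale. Apoe averaged 185 ± 130.6 FPKM (SD over 23 cells) at E3.5 and 228.99 ± 154 at E4.5, a log2 difference of 0.30. Of the 2 members above the filter of 1 FPKM, 1 was thus higher by a log2 of 1, beside 11.6% of all 11893 genes. Each stage was 1 sample, so no test was made, and the ranges overlapped. Median relative depth within that table was 1.34 at E3.5 and 0.622 at E4.5. Titles of E3.5 cells carried further numbers that those of E4.5 cells lacked, so stage and any batch behind the titles cannot be told apart. Among E3.5 cells, Apom was present in 3 of 4 whose titles lead with number 4 and in 0 of 7 with number 3. Endoderm regulators were already present: Gata6 in 22 and 19 of 23 cells, Sox17 in 11 and 14, Hnf4a in 16 and 8, and Dab2 in 21 and 17.

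In the motor neuron cultures the carriers appeared without most of the lipoprotein genes. Ttr was at 0 in all 52 male serum cells and reached 0.367 FPKM in 1 of 68 female serum cells. In the female motor neuron culture it ran from 0 to 208 FPKM with a median of 0, and 9 of 39 cells held it (23.1%, 95% interval 11.1% to 39.3%). In the male culture it ran from 0 to 1027 FPKM with a median of 27.7, and 25 of 35 cells held it (71.4%, 53.7% to 85.4%). None of the 373 cells of the 2i, serum and first Epi cultures reached 1 FPKM, which allows a share of up to 0.804%. Cells with Ttr were thus found in the motor neuron culture of both lines, while 30 of 39 female and 7 of 35 male cells there were at 0.

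Rbp4 was not as sharply divided. It ran from 0 to 10.3 FPKM in female and from 0 to 21.7 in male serum cells, with 2 of 68 and 11 of 52 cells at 1 FPKM or more. In the motor neuron cultures it ran from 0 to 970 FPKM in 10 of 39 female cells (25.6%) and from 0 to 86.2 in 13 of 35 male cells (37.1%). All 4 medians were 0 and the ranges overlapped. A single female cell carried much of that culture's mean, which was 35.3 FPKM with it and 10.7 without it.

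Afp was present in 6 of 39 female motor neuron cells (15.4%, 5.86% to 30.5%), at up to 64.4 FPKM, and in 0 of 35 male cells, which allows a share of up to 8.57%. Apoa4 was in 0 of 74 cells of both cultures (up to 4.05%), Apoa1 in 3, Apob in 2 and Apom in 7. Without Apoe, Rbp4 made up 56.3% and Ttr 31.7% of the members' summed mean in the female culture, and Ttr made up 88.9% and Rbp4 8.10% in the male culture. Without the 1 female cell at 970 FPKM of Rbp4, the female order turned, to 32.1% for Rbp4 and 44.8% for Ttr. At E5.5 Apoa1 made up 50.3% and 50.6% of the same sum, and Ttr 18.6% and 21.02%. Not more than 5 members were present in any motor neuron cell, and 9 of 39 female and 8 of 35 male cells held 3 or more.

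Apoe had lower medians in motor neuron than in serum cells. It ran from 204 to 4767 FPKM (median 911) in female and from 184 to 3731 (median 941) in male serum cells. In motor neuron cells it ran from 0.301 to 4082 (median 162) in the female and from 0 to 833 (median 8.30) in the male culture. It remained at 1 FPKM or more in 38 of 39 female cells and in 21 of 35 male cells. Ranges of serum and motor neuron cells overlapped in both lines.

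**Figure D4:**
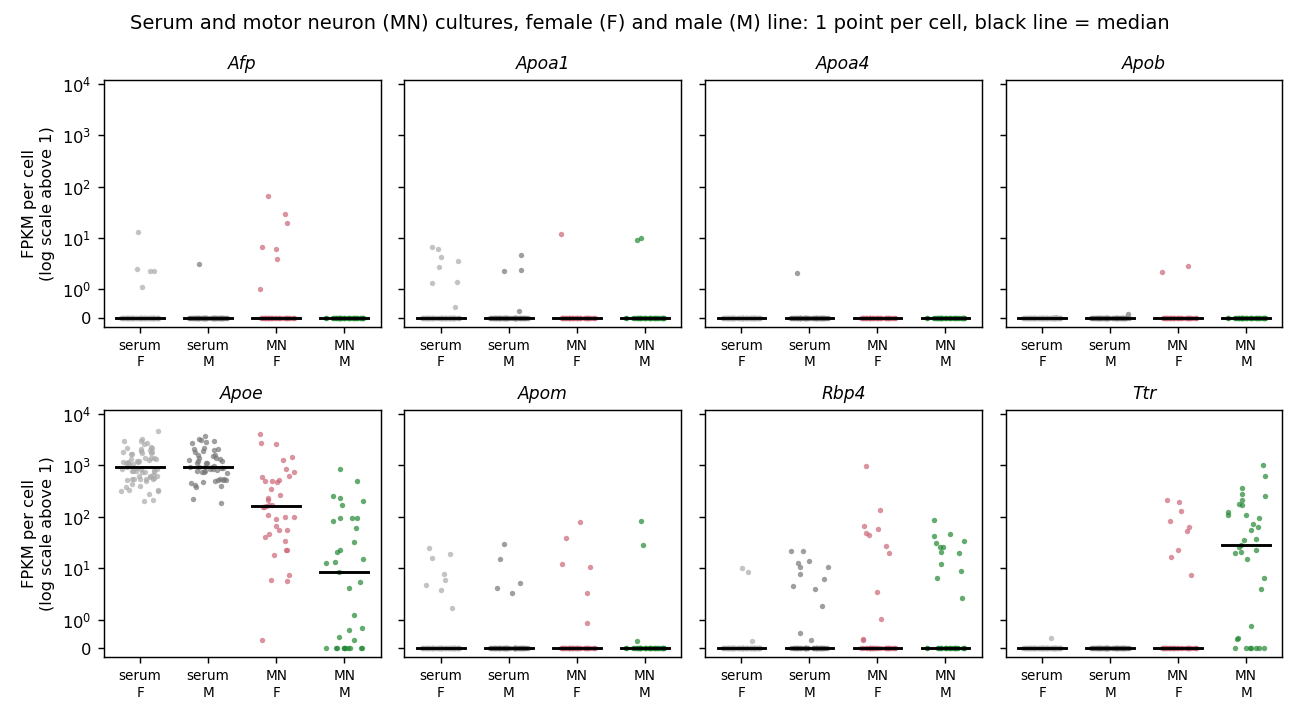
FPKM of the 8 genes (panels) in each serum and motor neuron cell of the female and male lines, on an axis that is logarithmic above 1, with the median as a black line. Ttr leaves 0 in the motor neuron cells, reaching 208 FPKM in the female and 1027 in the male culture, while the Apoe points move down.

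Culture means were compared between states in 1 limma fit on log2(mean FPKM + 1) over all 8 cultures, with Benjamini-Hochberg adjustment over 15504 genes. A call needed an adjusted p below 0.05 together with a log2 change of 1 or larger. The 2 lines, which differ in sex, were the replicates of a state, and p-values measure only the spread between these cultures. In a culture mean, fewer expressing cells and less RNA per cell cannot be told apart. Apoe, Apom, Rbp4 and Ttr passed the filter on low values, Ttr only because of the motor neuron cultures, so that it had to differ there and is given with no test. The other 4 members did not pass and were not tested.

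Ttr was higher in motor neuron than in serum cultures by 5.60 on that log2 scale, by 4.38 in the female and 6.83 in the male line. Rbp4 was higher by 3.31 (SE 0.70, limma adjusted p = 0.0145), by 4.83 in the female and 1.80 in the male line. Without the female serum culture Rbp4 was no longer called (2.65, limma adjusted p = 0.0915), nor with only the 4 cultures compared (adjusted p = 0.0769) or with upper-quartile scaling (2.46, adjusted p = 0.0528). Apom differed by 1.04 (SE 0.35, limma adjusted p = 0.0620) and Apoe by -2.61 (SE 1.04, limma adjusted p = 0.0949), with lines at -1.25 and -3.97, and neither was called. Apoe was called lower in 4 of 18 alternative settings, one of them without the female motor neuron culture (-3.94, limma adjusted p = 0.0439), and Apom was called higher in 3 of 17. Across all genes tested, 30.1% were called higher and 2.70% lower, and of the members other than Ttr that were tested Rbp4 alone was called.

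The scale of the values moved in this comparison. The median change of all genes was 0.71 on the deposited scale, 0.14 with each cell rescaled to the same sum and -0.26 with upper-quartile scaling. Higher genes made up 91.8%, 69.05% and 38.3% of the calls. Relative to the first median, the change was 4.90 for Ttr, 2.61 for Rbp4, 0.33 for Apom and -3.31 for Apoe. Rbp4 kept its call under rescaled sums and lost it under upper-quartile scaling, where Apoe was called lower (-3.75, limma adjusted p = 0.0404). The direction of Rbp4, Apom and Apoe was the same under all 3.

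Some genes that build and take up these particles were also higher in the motor neuron cultures. Of 10 lipoprotein assembly genes, 8 were tested and 5 were called higher by limma, beside the 30.1% of all genes, and none lower: Abca1, which loads lipid onto Apoa1 (2.81), P4hb, a subunit of the microsomal transfer complex (2.31), Mttp (1.65), Dgat1, which makes triglyceride (1.62), and Sar1b, which carries large lipoproteins out of the endoplasmic reticulum (1.36). The list's median change was 1.49 beside 0.71 for all genes, and calls fell to 3 with rescaled sums and to 2 with upper-quartile scaling. Over all genes the number called higher fell too, from 4669 of 15504 to 2166 of 15273 and to 1563 of 15447. Of 10 receptor genes, counting the adaptor Dab2, 9 were tested and 5 called higher, beside the same 30.1% of all genes. The 5 included Dab2 (6.19), Stra6, the receptor for Rbp4 (4.76), Lrp1 (2.62) and Lrp8 (2.07). Calls in this list were 4 and 3 under the other scalings. Not all of these genes lay in the cells with Ttr: in the 35 male motor neuron cells the Spearman correlation with Ttr was 0.72 for Stra6, 0.67 for P4hb, 0.42 for Mttp and 0.28 for Dgat1, but -0.24 for Abca1, -0.46 for Sar1b and -0.65 for both Lrp1 and Lrp8.

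Of 12 other secreted plasma proteins, 5 were tested by limma and none was called, with a median change of -0.20, and under upper-quartile scaling 1 was called lower. At an unadjusted p under 0.05 limma had 1 of these, Apoa2 at -1.94 (adjusted p = 0.0983). Endoderm transcription factors were called higher in 7 of the 10 tested, of 12, among them Sox17 (7.31), Foxa2 (5.58), Gata4 (5.48), Gata6 (3.86), Sox7 (2.94) and Foxa3 (1.45), with 6 called under each other scaling. Hnf4a, at 1.96, was not called (limma adjusted p = 0.0662). Of 9 parietal endoderm markers, the matrix-secreting endoderm, 8 were called higher, 7 under each other scaling. Of 12 neuron markers all 12 were called higher, and 11 of 11 tested under each other scaling. On the deposited scale these counts, too, stand beside 30.1% of all genes. Those under the other scalings stand beside 2166 of 15273 genes with rescaled sums and 1563 of 15447 with upper-quartile scaling. None of 7 hepatocyte markers reached a mean of 1 FPKM in either motor neuron culture, and all 7 were at 0 in the male one. Some list genes of this and the preceding paragraph may, like Ttr, have passed the filter only through the motor neuron cultures. Such genes had to be higher there, so the counts are not a test of the lists. In female and male serum cultures, 3 and 4 of 12 neuron markers averaged 1 FPKM or more. So did 1 and 1 of 12 endoderm transcription factors and 4 and 4 of 9 parietal endoderm markers.

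Ttr lay in the cells with endoderm genes. All 9 female cells with Ttr held Sox17, Gata4 and Lama1 together, as did 23 of 25 male cells with Ttr. The reverse held in 9 of 13 female and 23 of 26 male cells with the trio. Every cell with Hnf4a had Ttr, 4 of 4 in the female and 9 of 9 in the male culture. Cubn, the endocytic partner of Amn, was present in all 9 female cells with Ttr and in 12 of 25 male ones.

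In the male motor neuron culture the Spearman correlation with Ttr over 35 cells was 0.82 for Foxa2, 0.82 for Dab2 and 0.77 for Sparc, a matrix protein. Its median was 0.73 over 6 endoderm transcription factors, 0.69 over 9 parietal endoderm markers and -0.75 over 12 neuron markers, all 12 negative, with Tubb3, a neuronal tubulin, at -0.81. These cells share 1 culture and table, and Ttr had a correlation of -0.26 with genes per cell and of 0.21 with relative depth. Still, Dcx, a gene of young neurons, was present in 2 of 9 female and 12 of 25 male cells with Ttr. Choroid plexus markers summed to between 0 and 1005 FPKM per female cell and between 0 and 570 per male cell, with 5 and 2 of 7 markers at a mean of 1 FPKM and 1 and 3 at 0. Limma called 1 of the 4 tested higher and 1 lower. Ttr had a correlation of 0.67 with Clic6, present in 13 male cells that all held Ttr, and of 0.48 with Folr1, both on that list. Whether any Ttr came from such cells was not tested.

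**Figure D5:**
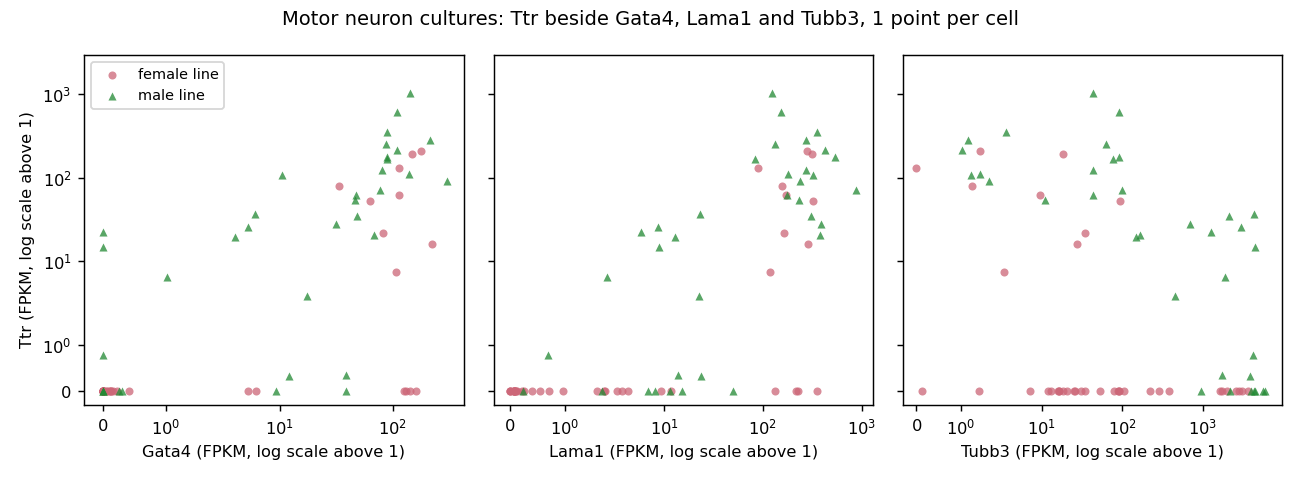
FPKM of Ttr (vertical axis) against Gata4, Lama1 and Tubb3 (horizontal axes) in each cell of the female (39) and male (35) motor neuron cultures. All 9 female cells with Ttr lie at 1 FPKM or more of Gata4 and Lama1, as do 23 of 25 (Gata4) and 25 of 25 (Lama1) male cells with Ttr, and the correlation of Ttr with Tubb3 is -0.81 in the male culture.

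Rbp4 was placed differently. In the female culture 4 of 10 cells with Rbp4 held the Sox17, Gata4 and Lama1 trio, and in the male culture 11 of 13 did. In the male culture its correlation with Ttr was -0.06, 9 cells holding both, and its median was 0.02 over 6 endoderm transcription factors and -0.02 over 12 neuron markers. In the female culture 4 cells held both carriers, and their correlation was 0.32. Afp was with Ttr in 4 of its 6 cells and with the trio in 5. Apoe had a correlation of 0.31 with Ttr and 0.40 with Rbp4 in the male culture. In the female culture these values were 0.02 and 0.19, and the value was 0.58 for Apoe and Apoc1. With the epiblast and pluripotency genes found in 10 or more cells, Apoe there ran from 0.0008 (Sox2) to 0.54 (Zfp42, an ES cell gene). In the male culture it was 0.44 for Apoe and Zfp42, and all 12 cells with Zfp42 held Ttr. With endoderm transcription factors, Apoe ran from -0.18 to 0.26 in the female culture and from 0.04 to 0.46 in the male one. Pou5f1 was present in 17 of 39 female and 2 of 35 male cells. The part of remaining ES-like cells in the Apoe level was not tested.

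Apom was widespread in 2i cells. In 2i it ran from 0 to 35.6 FPKM in both lines, with medians of 8.09 (female) and 6.30 (male), and 52 of 60 and 41 of 51 cells held it. In serum the medians were 0, and 8 of 68 and 5 of 52 cells held it, at up to 25.2 and 29.7 FPKM. Means were 10.1 FPKM in 2i and 1.23 in serum in the female line, and 9.36 and 1.11 in the male line, and the 95% intervals of the shares (66.9% or more in 2i, 21.9% or less in serum) did not overlap although the ranges did. In the limma fit the change from 2i to serum was -2.31 (SE 0.35), -2.32 and -2.30 by line, at an unadjusted p of 0.000459 and a Benjamini-Hochberg adjusted p of 0.0855, which missed the threshold. None of the 4 members tested was called there, 1 was at an unadjusted p under 0.05, and 0.0193% of all genes were called. With the 7-passage Epi cells in place of the first female Epi culture, and with log2 values averaged over cells, Apom was called lower.

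Between serum and Epi, limma called none of the 4 members tested, none was at an unadjusted p under 0.05, and 0.0387% of all genes were called. Rbp4 was present in 21 of 79 female and 19 of 63 male Epi cells, at up to 29.1 and 33.8 FPKM, and in 11 of 41 cells after 7 passages. Its change was 0.99 (SE 0.70, limma adjusted p = 0.742). Apom was in 10 and 2 Epi cells, and Apoa1 in 14 and 4, at up to 14.4 FPKM. After 7 passages Apoa1 was in 0 of 41 cells, which allows a share of up to 7.32%.

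Apoe was in every one of the 373 ES and Epi cells of the first table. Its mean was 1432 ± 534 FPKM (SD over 60 cells) in female and 1743 ± 571 (51) in male 2i cells, 1194 ± 860 (68) and 1247 ± 843 (52) in serum. In Epi cells it was 1607 ± 1420 (79) in the female and 272 ± 355 (63) in the male line. Ordered by mean, female E5.5 cells were highest (2721 ± 1490 over 20), followed by male 2i, female Epi, female 2i, male serum, female serum and male E5.5 cells (922 ± 732 over 63). Below these were the female motor neuron (502.2 ± 862 over 39), male Epi, E4.5, 7-passage Epi (214 ± 169 over 41), E3.5 and male motor neuron groups (78.8 ± 168 over 35). Neighbours in this order differed by less than the larger of their SDs over cells.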

How the data were processed

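Per the labels' protocols, libraries were made with SMART-seq2 and Tn5. The authors deposited 1 FPKM value for every gene and cell, and the submitters' processing notes name STAR 2.4.1, Cufflinks, Cuffnorm 2.2.1 and the mm10 build. A low line in the exponent of 356 values was read as a minus sign. Of 43628 gene IDs, 42462 matched symbols in GENCODE vM21 of the same build. Each cell was 1 sample of the deposit, grouped by its labels, and doublets were not screened.

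Counts were not used here, so depth in reads is unknown. Relative depth within a table was estimated from the steps between low FPKM values, for all but 2 cells. Shares used 1 FPKM and exact Clopper-Pearson 95% intervals. The genes described and the gene lists were chosen with earlier results of these data known.

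Culture means entered a limma 3.58.1 fit (R 4.3.3) with trend, a pseudocount of 1 FPKM, a filter at a mean of 1 FPKM over 8 cultures, 1 term for each state and 4 residual degrees of freedom, tested on simulated data. Blastocyst stages, sexes and passages had 1 sample per arm and no test, and genes there were compared at the same filter. Cultures of the same sex come from the same line. Between states, the female minus male deviations of 15504 genes had Pearson correlations of 0.06 to 0.16, and a fit with the line as replicate block was tried too. The text names the 8 genes everywhere, list genes called in motor neuron against serum cultures (some are not reported here), and the genes most like them in rank. Other genes given with a value (Amn, Apoa2, Apoc1, Apoc2, Trf, Alb, Cubn, Hnf4a, Pou5f1, Sox2, Otx2, Zfp42, Dcx, Lama1, Sparc, Tubb3, Prl8a2, Clic6, Folr1) were chosen after values had been seen.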

Additional observations from a re-analysis of the deposited data

Results flagged for a closer look

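In 2 of the genes the female and male lines moved in opposite directions between the same states, by at least 1 apart on the log2(mean FPKM + 1) scale. Afp differed between motor neuron and serum cultures by 1.73 in the female line and by -0.084 in the male line. Apoe differed between Epi and serum cultures by 0.43 (female) and -2.20 (male). Whether the lines differ was not tested, since each arm was 1 culture. With 13 groups of more than 10 cells each, single cells were not screened as outliers.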

How the results depend on the processing

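Of the 4 genes fitted, 2 (Rbp4 and Ttr) were past the threshold between motor neuron and serum cultures. Ttr, which the filter on low values let in through the motor neuron cultures, is in each count. It had to be higher there, so its part in the counts is no test. The count was 4 when Epi cells of 7 passages replaced the earlier female ones and 1 with only the 4 cultures compared, and ranged from 1 to 3 when each culture was left out in turn. The count stayed at 2 under upper-quartile scaling with other genes, Ttr higher and Apoe lower, beside 1563 of all 15447 genes higher and 2516 lower. The adjusted p of Rbp4 ranged from 0.00909 to 0.0915 over 18 alternatives. Between serum and 2i the count was 0, and 1 (Apom) with log2 values averaged over cells and with those 7-passage cells. Between Epi and serum it was 0 in every alternative run. The line as a replicate block gave counts of 2, 0 and 0, so it changed no call. Apoe, not called between Epi and serum cultures, turned from -0.88 to 0.40 without the male Epi culture and was at -2.16 without the female one, and no other member in the limma fit changed direction. A threshold of 5 FPKM moved 24 shares out of their interval and one of 0.1 FPKM moved 5. Rescaling moved 1 mean, that of Apoe at E4.5, to 413 FPKM. The Pearson correlation of log2 values had a median of 0.90 in female E5.5 cells, above the rank correlation. The split of male E5.5 cells by title number and the removal of 1 cell high in Rbp4 were chosen after seeing the data. Shares of genes near 1 FPKM and 1 sample per embryonic group limit what these data can show, and the causes of these shifts were not tested.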

Other observations

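Apoc1 and Apoa2, a small exchangeable apolipoprotein and the partner of Apoa1 in high density particles, were not among the 8 genes. Apoc1 was present in all 46 blastocyst cells, with a mean of 420 FPKM at E3.5 and 462 at E4.5, where Afp, Rbp4 and Ttr were at 0. At E5.5 its mean was 273.1 FPKM for female and 118.1 for male cells. Apoa2 was present in 3 of 23 cells at E3.5 and 10 of 23 at E4.5, close to the 2 and 9 cells with Apoa1. It averaged 110.98 FPKM in female and 24.1 FPKM in male E5.5 cells.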
